A study of Mus musculus with 9 samples.

Results

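Translation initiation factors and cytosolic tRNA synthetases make up the set of genes described here. Members were chosen by name from the array's annotation: gene symbols starting Eif1 to Eif6, without the Eif2ak kinases, and symbols of the cytosolic synthetases such as Aars, Gars and Eprs. The rule found 64 of the 19057 gene symbols on the array, 47 initiation factors and 17 synthetases, and each was read from the probe with the highest mean intensity. Of these, 55 members (38 initiation factors and all 17 synthetases) exceeded the noise on 3 or more of the 9 arrays and entered the fit. Of the fitted members, 54 were above noise on every array, and Yars on 7. The other 9 (Eif1ax, the pseudogene Eif2s3x-ps1, Eif3e, Eif3j1, Eif3m, Eif4e1b, Eif4ebp3, Eif4g3 and Eif5a2) never exceeded an intensity of 12.4. Their levels are not analysed further. Eif1, Eif2s1 and Eif4g1 had no probe named for them in the annotation and are not analysed here. Membership rests on names and no measured value, though the probe was chosen by its mean over these arrays. The rule was written with earlier results of these data known.

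The 9 arrays measured RNA of primary B lymphocytes purified from spleens of C57BL/6 mice aged 8 weeks: 3 arrays of untreated (control) cells, 3 of cells after 1 h and 3 of cells after 2 h of anti-IgM. Anti-IgM was a goat F(ab')2 antibody against mouse IgM at 2.5 µg/ml, which crosslinks the B-cell receptor. IL-4 (5 ng/ml) and CD40L (200 ng/ml) are listed in the protocol with no word on which arrays had them, and the design text of the series gives 3 h where the sample labels give 1 and 2 h. Whether arrays of 1 group stem from different animals or cultures is not stated, so the p-values below measure only the spread between these arrays, which may be technical. In such bulk RNA, fewer cells of a type and less RNA per cell cannot be told apart.

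Initiation factors bring the small ribosomal subunit, the initiator tRNA and the capped mRNA together and find the start codon. eIF2 carries the initiator tRNA and eIF2B recharges it with GTP, eIF3 is the large scaffold, and eIF4E, eIF4G and the helicase eIF4A bind and unwind the capped end, while the 4E-binding proteins hold eIF4E back. tRNA synthetases join each amino acid to its tRNA. Resting lymphocytes translate little, antigen receptor signals raise translation through mTOR and Myc, and many synthetase genes are known targets of the transcription factor ATF4, which is made when eIF2 is phosphorylated.

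The arrays labelled replicate 2 stood apart from the other arrays of their labels. The array labelled untreated replicate 2 resembled 2 h replicates 1 and 3, and the array labelled 2 h replicate 2 resembled untreated replicates 1 and 3. Myc, a gene that antigen receptor signals raise, had 798 on untreated replicate 2, against 57 and 70 on untreated replicates 1 and 3, and 56.4 on 2 h replicate 2, against 876 and 801 on 2 h replicates 1 and 3. Whether these arrays carry each other's label was not tested, and every difference by label below holds only for the labels as deposited. Array weights estimated from all features were 0.261 for 1 h replicate 2, 0.3074 for 2 h replicate 2 and 0.3426 for untreated replicate 2, on a scale where the best array had 4.11. Intensities are in the deposited units, with a median of 3.76 to 3.77 and 19088 to 19112 probes above noise on each array. The labelled cell type was borne out by its markers: 6 of the 7 B-cell markers on the array were above noise, with summed intensities of 33013 to 36915 in untreated, 29110 to 35572 in 1 h and 29404 to 36127 in 2 h arrays, and Cr2 was not. Cd74, which makes up most of the sum, lay between 20691 and 24650, while Cd79b, Ms4a1, Cd22 and Blnk moved with the arrays that stood apart. Fcer2a was low on 1 h replicate 2 (1241, against 2842 and 3139) but not on untreated replicate 2 (3117, against 2579 and 2543). On 2 h replicate 2 Fcer2a had 2425, against 2055 and 2182. Cd79b, a B-cell receptor subunit, had 3791 on untreated replicate 2, against 8660 and 9360 on the other untreated arrays. It had 2450 on 1 h replicate 2, against 7250 and 6131, and 8160 on 2 h replicate 2, against 4943 and 3995. Cd22, a B-cell surface inhibitor, had 282 on 1 h replicate 2, against 1133 and 1240. Of the 7 T-cell markers on the array, 4 were above noise, and Cd3g, Cd4 and Cd8a were not. Cd8b1 (158 to 319) and Thy1 (12.9 to 73.2) were above noise on all 9 arrays, and the T-cell sum lay between 238 and 415. Also above noise were 4 of 6 macrophage and monocyte markers, 2 of 4 NK-cell markers and 1 of 3 plasma-cell markers (Xbp1, 2810 to 5458). All 7 neutrophil markers were above noise, and their sum ran from 930 to 5311 in untreated, 729 to 4185 in 1 h and 1099 to 3826 in 2 h arrays. The neutrophil and the erythroid sum were highest within each label on untreated replicate 3, 1 h replicate 3 and 2 h replicate 1. The erythroid sum was 2385, 2673 and 2627 there. Both sums were lowest within each label on the array labelled replicate 2. For neutrophils these lowest sums were 930, 729 and 1099, and for erythroid cells 79.6, 75.7 and 226, in the order untreated, 1 h and 2 h. The part of the B-cell markers and of these other cells in the results was not tested.

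No member passed the test in any comparison by label when all arrays counted equally. A fit with array weights gave the arrays labelled replicate 2 less say. In it, 29 of 55 members (18 higher, 11 lower) passed at 2 h against untreated. So did 4914 of all 14640 features, with more of these lower than higher. In the other pairwise comparisons 0 members passed. The weights were estimated from these same arrays by label, so the weighted p-values may be too small and these counts are a description. In the limma fit to all 9 arrays, 0 of 55 members and 0 of 14640 features (percent called 0) had an adjusted p below 0.05 at 1 h against untreated, at 2 h against untreated or at 2 h against 1 h. The smallest adjusted p of a member was 1, 0.908 and 0.505 in these comparisons. The F-test over the 3 labels gave 0 features as well, with a smallest member adjusted p of 0.977. Its unadjusted p was below 0.05 for 2 members, Eif3h (0.0313) and Eif3k (0.0205), and for 4.36% of all features. In the pairwise tests 0 members at 1 h were below an unadjusted p of 0.05, against 1.29% of all features. At 2 h against untreated there were 2 (3.64%), Eif3h and Eif4e, against 4.98% of all features. At 2 h against 1 h there were 3 (5.45%), Eif3h, Eif3k and Eif4e, against 6.84% of all features. Any pair of these comparisons shares the 3 arrays of a label.

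By label, 37 members had a higher and 18 a lower mean at 1 h than in untreated cells. Their median log2 difference was 0.13, with a range of -0.39 to 0.67, while 48.6% of all features were higher. For the synthetases alone the count was 15 of 17 higher, with a median of 0.23, and for the initiation factors 22 of 38, with a median of 0.07. At 2 h against untreated, 30 members were higher and 25 lower, with a median of 0.01. At 2 h against 1 h, 14 were higher and 41 lower, with a median of -0.10. All 7 synthetases of the multisynthetase complex were lower there, by 0.02 to 0.26, with a median of -0.11. Of the 10 other synthetases 8 were lower, and the median of these 10 was -0.26. The median of all features lay within 0.01 of 0 in each comparison. No member had 1 h and untreated arrays that did not overlap, where 2.64% of all features were higher and 2.37% lower in that way. The directions of both comparisons with the 1 h arrays rested on 1 h replicate 2. Without it the members' median was -0.12 at 1 h against untreated and 0.12 at 2 h against 1 h, and the synthetases' median at 2 h against 1 h was 0.21, against -0.15 with it.

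**Figure D1:**
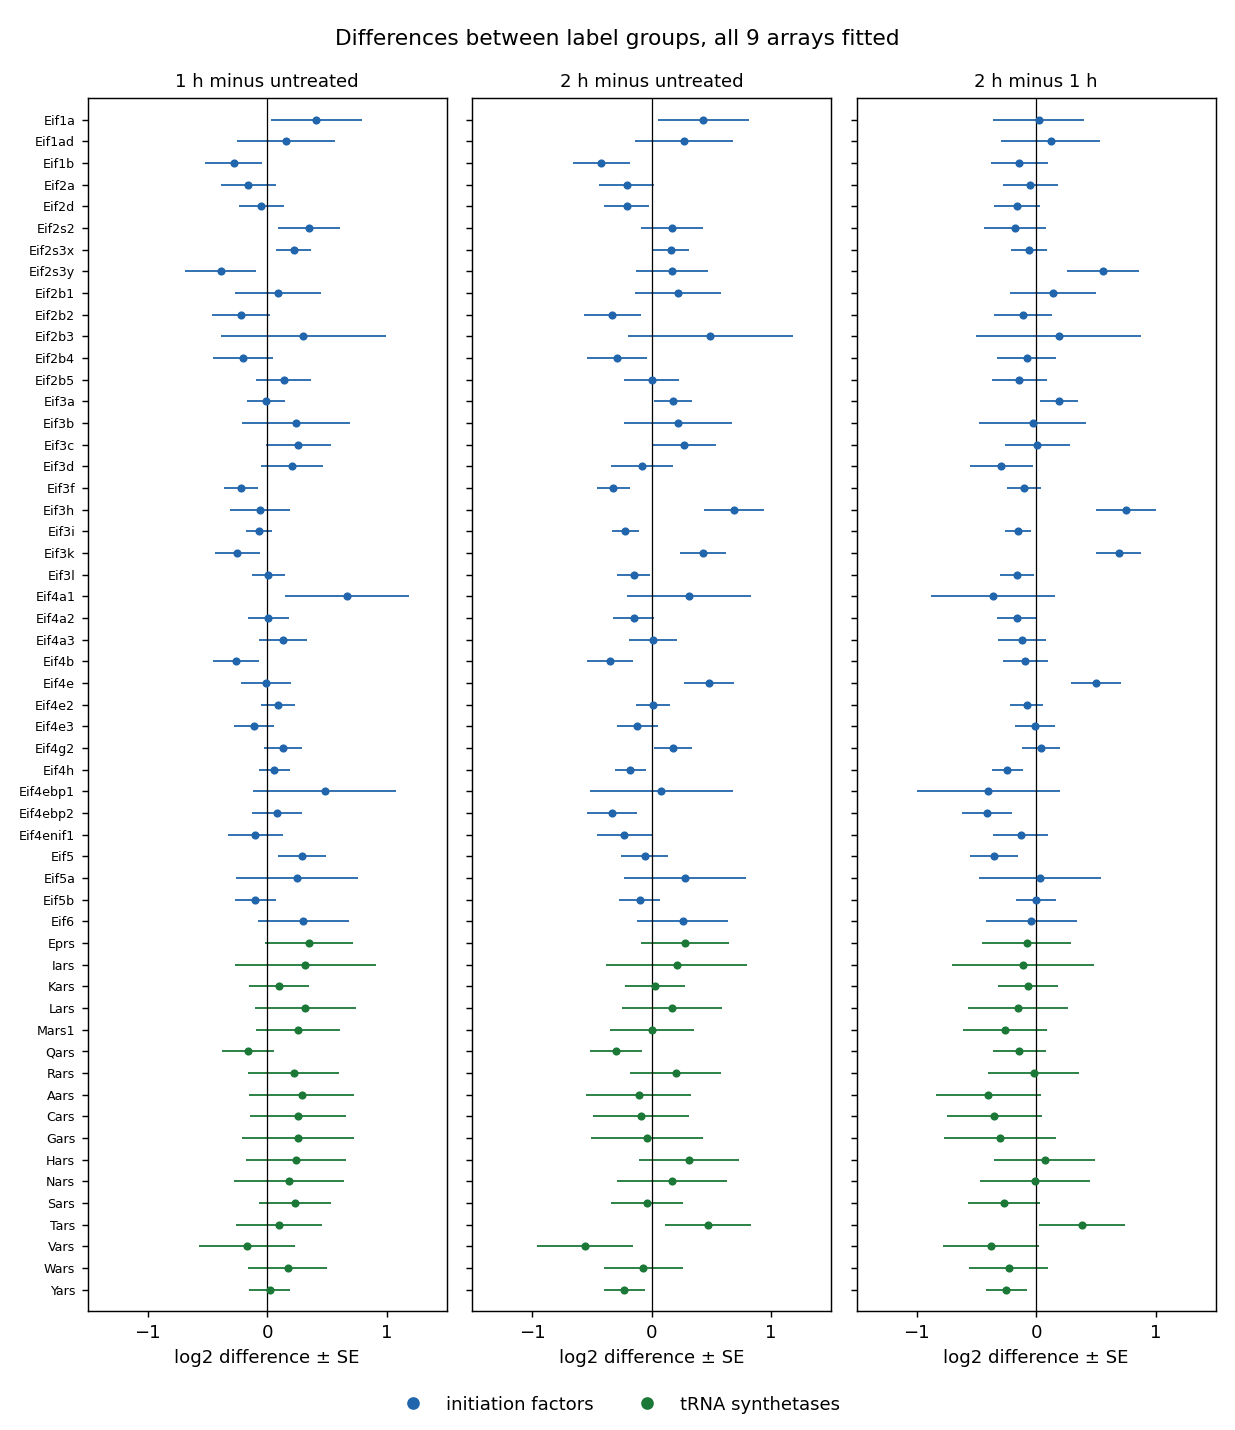
Log2 difference of each of the 55 members (points, with bars of 1 SE from the limma fit to all 9 arrays) at 1 h minus untreated, 2 h minus untreated and 2 h minus 1 h, with initiation factors and synthetases coloured apart. The members spread around 0 (medians 0.13, 0.01 and -0.10), and Eif3h (0.75) and Eif3k (0.69) lie farthest right at 2 h minus 1 h.

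**Figure D2:**
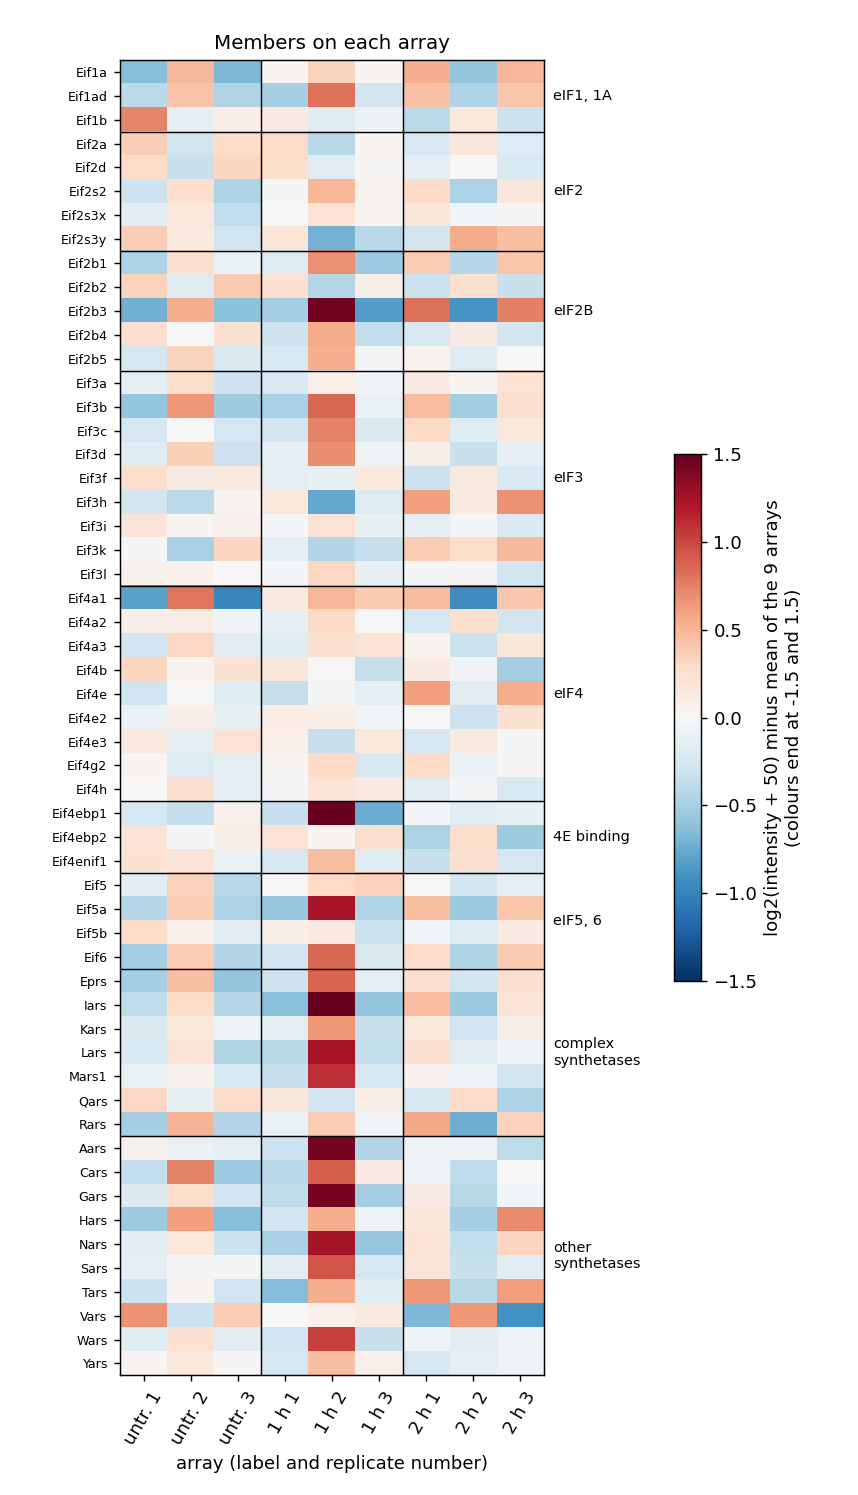
Log2(intensity + 50) of each of the 55 fitted members minus its mean over the 9 arrays (colour, red above and blue below the mean, ending at -1.5 and 1.5), with members in rows by role and arrays in columns as untreated, 1 h and 2 h of anti-IgM. The column of 1 h replicate 2 is red for most synthetases (median 0.90), and 29 members are high on untreated replicate 2 and low on 2 h replicate 2 within their labels.

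Eif4a1, the RNA helicase that unwinds the capped end of the mRNA, had the largest difference of any member at 1 h. Its intensities were 3677, 11222 and 3245 on the untreated arrays, 7092, 9110 and 8480 on the 1 h arrays and 8978, 3339 and 8519 on the 2 h arrays. Untreated replicate 2 was the highest of all 9 and 2 h replicate 2 was at the level of the other untreated arrays, so the groups overlapped. The log2 difference was 0.67 ± 0.52 (SE) at 1 h and 0.31 ± 0.52 at 2 h against untreated, with limma adjusted p of 1 and 0.92. The 1 h value was 0.35 without untreated replicate 3 and 1.23 without untreated replicate 2. A second probe of the gene gave 0.65 and 0.58. Its neighbour in function Eif4a2, the helicase's paralog, ranged from 2841 to 4213 over all 9 arrays on the probe with the highest mean. Its other kept probes varied more and in opposite layouts. The brighter of these had 774, 389 and 812 on the untreated arrays and 583, 767 and 483 on the 2 h arrays. There replicate 2 was low in untreated and high in 2 h. The dimmer had 84.7, 106 and 80.3 on the untreated arrays and 151, 105 and 149 on the 2 h arrays.

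The arrays of Eif1a, which helps the scanning ribosome settle on the start codon, followed the same layout. It had 590, 1343 and 573 on the untreated arrays, 964, 1210 and 971 on the 1 h arrays and 1392, 615 and 1358 on the 2 h arrays. The mean difference at 1 h was 0.41 ± 0.38 on the log2 scale (limma adjusted p = 1), and 0.79 without untreated replicate 2. Here too the second untreated array was as high as the 2 h arrays 1 and 3, and the second 2 h array as low as the untreated arrays 1 and 3.

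Among the eIF2 genes, Eif2s2, the beta subunit, had 344, 535 and 305 on the untreated arrays, 431, 643 and 460 at 1 h and 551, 304 and 502 at 2 h. Eif2s3y, the Y-linked gamma subunit, had the most negative difference of any member at 1 h, -0.39 ± 0.30, and 0.56 ± 0.30 at 2 h against 1 h, with limma adjusted p of 1 and 0.801. Without 1 h replicate 2 these were -0.19 and 0.36. Its intensities were 665, 566 and 402 in untreated cells, 581, 289 and 368 after 1 h and 410, 767 and 707 after 2 h. A second probe of Eif2s3y lay at 0.881 to 15.9, around the noise, where a difference could hardly show.

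The exchange factor eIF2B is made of 5 different subunits, all of them measured. Eif2b3, its gamma subunit, had 93.2, 293 and 103 on the untreated arrays, 115, 589 and 82.7 on the 1 h arrays and 366, 76.9 and 346 on the 2 h arrays. The 2 h difference was 0.49 ± 0.69 (limma adjusted p = 0.911), with an SE larger than the difference, and it was 1.05 without 2 h replicate 2. Eif2b1, the alpha subunit, had 315, 552 and 422 in untreated cells, 393, 759 and 297 after 1 h and 607, 325 and 621 after 2 h. On 1 h replicate 2, 4 of the 5 subunits were above both other 1 h arrays, and Eif2b2 was below both at 349, against 582 and 520.

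Of the scaffold eIF3, 9 subunits were fitted. Eif3h had 218, 143 and 233 on the 2 h arrays, against 95.3, 83.1 and 131 on the untreated arrays, and the groups did not overlap. That was the only member higher without overlap in this comparison, where 6.8% of all features were. Its log2 difference was 0.69 ± 0.25 against untreated and 0.75 ± 0.25 against 1 h, with limma adjusted p of 0.908 and 0.6. The gene had 1 kept probe, so no second probe could be set beside it.

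Eif3k had 1949, 1786 and 2093 on the 2 h arrays, against 1336, 1080 and 1154 on the 1 h arrays. These groups did not overlap, which holds for 6.93% of all features in that direction, and no other member was higher without overlap there. In the other direction 0 members and 4.43% of all features were lower without overlap. The log2 difference was 0.69 ± 0.19, with a limma p of 0.00711 and an adjusted p of 0.505. A second, dimmer probe of Eif3k gave -0.09, with 84.8, 91.8 and 104 on the 2 h arrays, against 81.3, 110 and 118 on the 1 h arrays. Untreated arrays had 1468, 1050 and 1862, so the 2 h and untreated values overlapped.

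Eif3i lay at 9011, 9745 and 8605 on the 2 h arrays, against 11368, 10130 and 10421 on the untreated arrays, lower without overlap. The other 2 probes of Eif3i did not show this, with differences of 0.01 and -0.12 and overlapping groups. Yars was the only other member with that pattern, and 4.38% of all features had it. Both were picked out after their values were seen. The largest subunit Eif3a ranged from 637 to 968 over all arrays. Eif3b, another core subunit, had 283, 733 and 296 in untreated cells, 306, 854 and 416 after 1 h and 637, 297 and 546 after 2 h.

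Eif4e, the cap-binding protein, was dim on every array. It had 17.1, 32.7 and 22.9 on the untreated arrays, 15.1, 30.8 and 24.6 on the 1 h arrays and 76.3, 23.1 and 70.1 on the 2 h arrays. The 2 h values of replicates 1 and 3 were the highest of the 9, and replicate 2 lay among the untreated values. The log2 difference was 0.48 ± 0.21 against untreated and 0.50 ± 0.21 against 1 h (limma adjusted p of 0.908 and 0.716), and 0.74 and 0.75 without 2 h replicate 2. At these intensities the offset of 50 compresses the log2 scale, so the differences understate the ratios. Eif4g2, an eIF4G relative that does not bind eIF4E, ranged from 457 to 691.

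The inhibitor Eif4ebp1 had 1253 on 1 h replicate 2, against 211 and 149 on the other 1 h arrays. The untreated arrays had 227, 209 and 299 and the 2 h arrays 276, 245 and 258, so 8 of the 9 arrays lay within 149 to 299. The difference at 1 h was 0.48 ± 0.60 on the log2 scale (limma adjusted p = 1), and without 1 h replicate 2 it was -0.36. Eif4ebp2, its relative, had 244, 202 and 226 on the untreated arrays, 250, 213 and 254 on the 1 h arrays and 135, 260 and 128 on the 2 h arrays. The second 2 h array was high and the others low, the opposite of Eif4e.

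Eif5, which makes eIF2 hydrolyse its GTP, had 3431, 4876 and 2857 in untreated cells, 3829, 4734 and 4868 after 1 h and 3858, 3151 and 3490 after 2 h. Eif5a, known for carrying the modified lysine hypusine and easing elongation and termination, had 1029, 1828 and 1001 in untreated cells, 933, 3367 and 1018 after 1 h and 1932, 942 and 1890 after 2 h. Eif6, which keeps the large ribosomal subunit from joining too early, had 1147, 2175 and 1212, then 1344, 3040 and 1417, then 2033, 1187 and 2192 in the same order. For both genes 1 h replicate 2 was the highest array. Eif5b, the GTPase of subunit joining, stayed between 16.5 and 50.7.

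**Figure D3:**
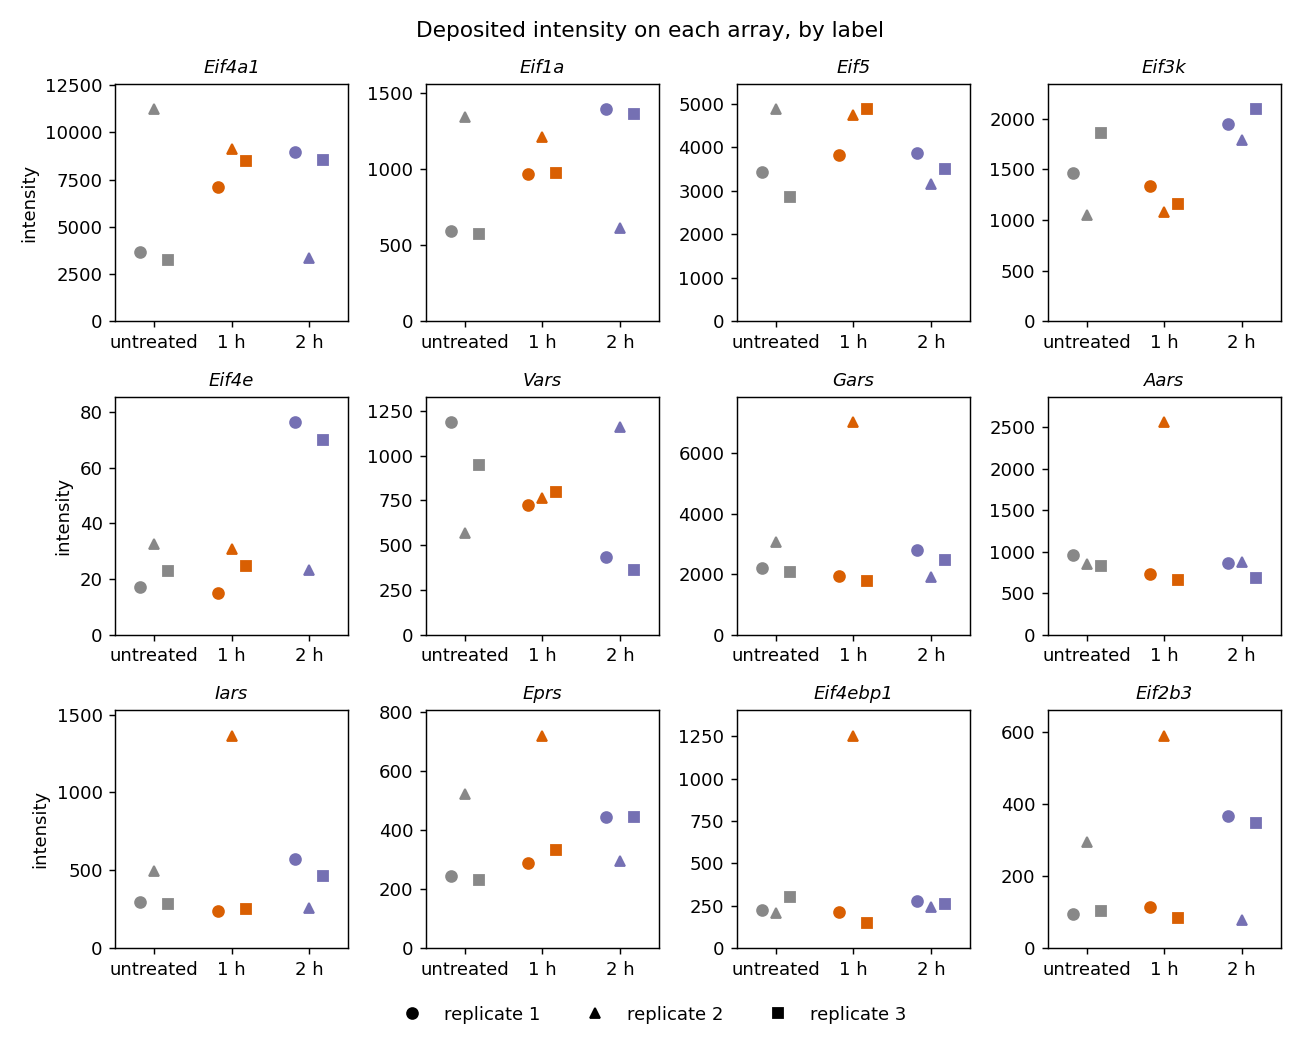
Deposited intensity (linear axis from 0) of 12 members, with 1 point per array, replicates marked by shape and the groups ordered untreated, 1 h and 2 h of anti-IgM. In Eif4a1 untreated replicate 2 (11222) and 2 h replicate 2 (3339) lie away from the others of their labels, and in Gars 1 h replicate 2 (7027) lies above all other arrays.

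The synthetases showed the clearest departure on 1 h replicate 2. Gars, which charges glycine tRNA, had 7027 there, against 1960 and 1794 on the other 1 h arrays, with 2223, 3084 and 2086 in untreated cells and 2795, 1906 and 2484 after 2 h. Aars, for alanine, had 2558 there, against 728 and 658, with 958, 852 and 823 in untreated cells and 865, 878 and 687 after 2 h. The other 8 arrays lay between 1794 and 3084 for Gars and between 658 and 958 for Aars. Within their labels, Gars was also high on untreated replicate 2 and low on 2 h replicate 2. In both genes the 1 h label as a whole did not pass the test (0.26 ± 0.47 and 0.29 ± 0.44, limma adjusted p of 1 for each).

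Nars, for asparagine, had 762 on 1 h replicate 2, against 194 and 181 on the other 1 h arrays. Its untreated arrays had 253, 331 and 224 and its 2 h arrays 344, 214 and 378. Mars1, listed here for Mars and specific for methionine, had 707 there, against 227 and 248 on the other 1 h arrays, and lay between 241 and 318 on the other labels' arrays. Wars, for tryptophan, had 314 there, against 96.5 and 92.9, and 108 to 161 in untreated and 110 to 123 in 2 h arrays.

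Iars, for isoleucine, had 1364 on 1 h replicate 2, against 241 and 248 on the other 1 h arrays. Lars, for leucine, had 2809 there, against 854 and 898. Eprs, Cars and Yars had less of a step on that array. Eprs, the fused enzyme for glutamate and proline, had 720 on 1 h replicate 2, against 288 and 332, with 246, 524 and 230 in untreated cells and 444, 295 and 444 after 2 h. Cars, for cysteine, had 247 there, against 69.0 and 123, and untreated replicate 2 was nearly as high at 217. Yars, for tyrosine, was near the noise on all arrays, from 2.34 to 35.6. Vars, for valine, had no step on that array: it had 1185, 570 and 948 on the untreated arrays, 723, 761 and 798 on the 1 h arrays and 433, 1158 and 362 on the 2 h arrays. Its 2 h difference was -0.56 ± 0.40 (limma adjusted p = 0.908), -1.03 without 2 h replicate 2 and -0.26 without 2 h replicate 3.

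Over the whole set, 1 h replicate 2 was above both other 1 h arrays in 40 of 55 members (72.7%), where 37.2% of all features were. It was below both in 10 (18.2%), where 42.4% of all features were. It was above both in 15 of the 17 synthetases (88.2%), all but Qars and Vars, with a median log2 difference from the mean of the other 2 arrays of 1.10. It was above both in 25 of the 38 initiation factors, with a median of 0.25. The median over all features was -0.02. The array was the highest of all 9 for 30 members (54.5%) and for 12 of the 17 synthetases, against 18.3% of all features. These are descriptions of a single array and carry no test.

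Intensity + 50 on 1 h replicate 2 was at least 1.5 times the highest of the other 8 arrays for 11 members, or 20%, while 2.15% of all features reached it. They were Eif4ebp1 at 3.73 times, Aars at 2.59, Iars at 2.28, Gars at 2.26, Mars1 at 2.06, Lars at 2.02, Nars at 1.90, Eif5a and Wars at 1.72, Sars at 1.68 and Eif2b3 at 1.54. Kars at 1.40 and Eif6 at 1.38 were just under the limit. By class these were 8 of 17 synthetases and 3 of 38 initiation factors. Of the 14 synthetases with several kept probes, 11 had every probe higher on that array than on the other 1 h arrays, 1 (Qars) every probe lower and 2 a mixture. The dimmer probe of Gars had 49.4 on 1 h replicate 2, against 18.4 and 15.8 on the other 1 h arrays. That of Aars had 41.6, against 10.6 and 11.2. At such intensities the offset of 50 shrinks the log2 difference, which was 0.57 for Gars and 0.59 for Aars.

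**Figure D4:**
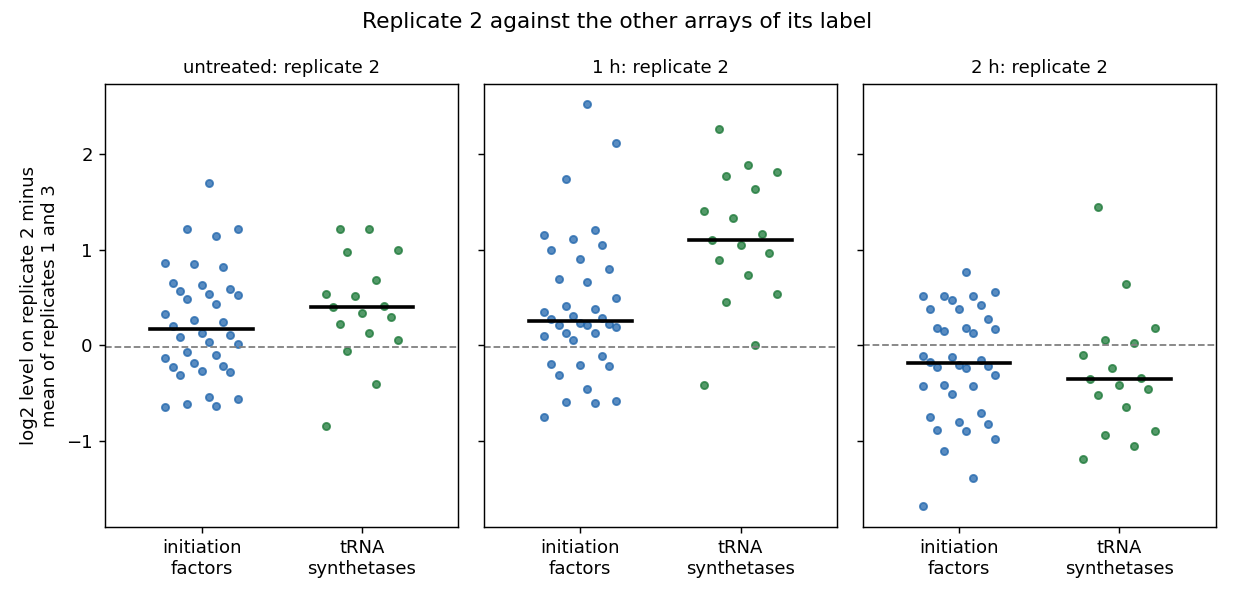
Log2(intensity + 50) of replicate 2 minus the mean of replicates 1 and 3 of its label, with 1 point per member in untreated, 1 h and 2 h panels, a bar at the median of each class and a dashed line at the median of all features. The synthetases lie mostly above the line in untreated (median 0.40) and 1 h (median 1.10) and mostly below it in 2 h (median -0.35).

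Of the 29 fitted regulators of eIF2 and eIF4F, 16 were above both other 1 h arrays on 1 h replicate 2, with a median difference of 0.09. Trib3, a pseudokinase induced by ATF4, had 571 on 1 h replicate 2 and 22.8 to 58.2 on the other 8 arrays. Asns, asparagine synthetase, had 1359 there and 82.1 to 300 elsewhere, and Chac1, which degrades glutathione, 1786 and 85.3 to 324. Sesn2, which senses leucine, had 84.4 there and 7.28 to 42.6 elsewhere. The transcript of Atf4 itself was highest there too, at 5075, though 2 h replicate 3 had 5029. Ddit3, a stress-induced transcription factor, had 788 there, against 545 and 698 on the other 1 h arrays. Others were lower there: Ppp1r15a, which helps dephosphorylate eIF2, had 242, against 376 and 435, and Ddit4, an mTOR inhibitor, 235, against 351 and 297. None of these passed the limma test between labels, and they were picked out after their values were seen. Their part in the synthetases' values was not tested.

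Among the members, replicate 2 of the untreated and of the 2 h label stood apart in opposite directions. In untreated cells 34 of 55 members were above both other arrays on replicate 2 (61.8%, against 38% of all features) and 16 below both (29.1%, against 44.2% of all features), with a median of 0.26. In 2 h cells 17 members were above both (30.9%, against 42.3% of all features) and 35 below both (63.6%, against 40% of all features), with a median of -0.23. Both at once, high on untreated replicate 2 and low on 2 h replicate 2, held in 29 members (52.7%), 11 of them synthetases, against 24.5% of all features. The opposite layout held in 11 members (20%), among them Vars, Qars, Eif1b, Eif2a, Eif3f and Eif4ebp2, against 28.6% of all features.

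Because these arrays stood apart, each comparison was also fitted without the 3 arrays labelled replicate 2, leaving 2 arrays a group. The choice of arrays was made with their values known, so its limma p-values are too small and the counts are a description. At 1 h, 2 members were higher, Eif4a1 (1.16 ± 0.13, adjusted p = 0.000192) and Eif1a (0.69 ± 0.11, adjusted p = 0.00267), where 3.95% of all features were called higher. Eif2b4, the delta subunit of eIF2B, was lower (-0.58 ± 0.11, adjusted p = 0.00817), where 3.39% of all features were. No synthetase was called at 1 h, their median being -0.13.

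At 2 h against untreated, the same fit called 20 members higher and 9 lower, where 15.7% and 19% of all features were. The higher ones were 13 initiation factors and 7 synthetases. Eif2b3 had the largest difference, 1.45 ± 0.13 (limma adjusted p = 6.46e-06), followed by Eif4a1 at 1.33 and Eif1a at 1.17. Eif4e was higher by 0.82 ± 0.12 (limma adjusted p = 0.000274), Eif5a by 0.88 and Eif6 by 0.81. The synthetases Hars, Tars, Rars, Eprs, Iars, Nars and Lars were higher by 0.43 to 1.02. The lower members were Vars at -1.32 ± 0.14 (limma adjusted p = 2.10e-05), Qars, Eif1b, Eif2a, Eif2b2, Eif2b4, Eif2d, Eif3f and Eif4ebp2, the last at -0.65.

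At 2 h against 1 h, 21 members were called higher and 5 lower in that fit, where 12.1% and 13.7% of all features were. Here 9 synthetases were higher, Gars and Kars among them, and Vars and Qars were lower. Eif4a1 differed by only 0.17 ± 0.13 (limma adjusted p = 0.383), and Eif2b3 by 1.46 ± 0.13. The medians of the members were -0.08, 0.23 and 0.19 at 1 h against untreated, 2 h against untreated and 2 h against 1 h, against medians of all features within 0.02 of 0.

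Promoter sequence was read for the members because the synthetases were the members most often high on 1 h replicate 2. RefSeq windows of GRCm38.p6, from 250 bases before to 50 after each start, were at hand for 45 members, 10 of them synthetases. Members that were not fitted, such as Eif1ax and Eif5a2, are counted among the initiation factors here. The letters TGATGNAA, the form of the site that C/EBP and ATF factors share, were searched on both strands after the values were seen. They were in 5 of 10 synthetases (Aars, Gars, Iars, Tars and Yars), in 1 of 35 initiation factors (Eif2s3x) and in 4.51% of all genes with a window, or 3.97% of all windows. The narrower TGATGCAA and TGATGCAAT, which are contained in it, were in 40% and 20% of the synthetases and 1.03% and 0.222% of all genes. The E-box CACGTG, which Myc binds, was in 3 of 10 synthetases and 9 of 35 initiation factors, Eif4a1, Eif4e and Eif5a among them, and in 8.09% of all genes, or 7.15% of all windows. The wider CANNTG, which holds CACGTG, was in 80% of the synthetases, 60% of the initiation factors and 75% of all genes. The ETS letters CCGGAAG were in 40% of both classes and 9.93% of all genes, and GGAAGTG, which can overlap them, in 10% of the synthetases, 37.1% of the initiation factors and 12.5% of all genes. CACGCG was in 40% of the synthetases, 17.1% of the initiation factors and 10.5% of all genes. These 8 motifs were all that were searched. A match is no site of binding, and no match says only that these letters are not in the window. Of the synthetases with TGATGNAA, Aars, Gars and Iars were at least 1.5 times the other arrays on 1 h replicate 2. Tars (0.94) and Yars (1.23) were not. Mars1 (2.06) and Sars (1.68) reached that limit and had a window without these letters. A link between the letters and that array was not tested.

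The 200 bases before the start are shown for 3 synthetases with TGATGNAA and for 2 without it: Mars1, which was also high on 1 h replicate 2, and Qars, which was not. Eif4a1 is shown for its E-box. Capitals mark the match, which for TGATGNAA reads on the opposite strand in each of the 3 genes and so ends in CATCA. The match lies 30 to 23 bases before the start in Gars, 112 to 105 in Aars, 15 to 8 in Tars and 189 to 184 in Eif4a1. Aars has a further match that lies after the start and is not printed. The window of Aars is placed on a RefSeq start inside the annotated gene (chr8:111027778-111055569). The printed bases of Gars (chr6:55038001-55079504) and Eif4a1 (chr11:69666936-69672423) end where the gene begins. Each line is the strand of its gene, 5′ to 3′.
Gars, chr6:55037801-55038000 (+ strand): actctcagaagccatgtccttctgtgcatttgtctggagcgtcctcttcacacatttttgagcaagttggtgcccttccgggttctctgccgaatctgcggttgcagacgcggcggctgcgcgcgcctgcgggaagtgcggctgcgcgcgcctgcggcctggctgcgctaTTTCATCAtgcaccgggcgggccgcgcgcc
Aars, chr8:111033642-111033841 (+ strand): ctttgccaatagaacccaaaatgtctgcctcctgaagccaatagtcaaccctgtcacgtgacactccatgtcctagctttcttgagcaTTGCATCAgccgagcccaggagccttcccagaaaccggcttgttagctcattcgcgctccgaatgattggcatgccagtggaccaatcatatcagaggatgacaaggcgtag
Tars, chr15:11399659-11399858 (- strand): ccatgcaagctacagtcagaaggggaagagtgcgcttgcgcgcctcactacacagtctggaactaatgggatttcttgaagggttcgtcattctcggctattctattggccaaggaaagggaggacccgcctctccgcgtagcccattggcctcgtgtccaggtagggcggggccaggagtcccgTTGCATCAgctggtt
Mars1, chr10:127311787-127311986 (- strand): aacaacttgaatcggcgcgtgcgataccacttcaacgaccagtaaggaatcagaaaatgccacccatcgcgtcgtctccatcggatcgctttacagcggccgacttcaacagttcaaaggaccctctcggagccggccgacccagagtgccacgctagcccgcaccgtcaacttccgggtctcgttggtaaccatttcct
Qars, chr9:108507805-108508004 (+ strand): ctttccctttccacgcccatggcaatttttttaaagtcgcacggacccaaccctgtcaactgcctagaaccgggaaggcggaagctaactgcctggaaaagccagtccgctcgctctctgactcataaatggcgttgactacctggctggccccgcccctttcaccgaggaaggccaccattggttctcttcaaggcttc
Eif4a1, chr11:69672424-69672623 (- strand): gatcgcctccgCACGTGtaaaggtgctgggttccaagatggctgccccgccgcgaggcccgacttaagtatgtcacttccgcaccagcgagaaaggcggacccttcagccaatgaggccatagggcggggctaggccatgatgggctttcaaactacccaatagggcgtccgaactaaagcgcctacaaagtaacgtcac

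Tars, for threonine, had intensities of 41.5, 67.3 and 44.1 in untreated cells, 23.0, 117 and 50.9 after 1 h and 129, 35.6 and 127 after 2 h. Its highest values were on 2 h replicates 1 and 3, not on 1 h replicate 2. Qars, for glutamine, had 922 on 1 h replicate 2, against 1290 and 1202 on the other 1 h arrays, and ranged from 808 to 1410 elsewhere.

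Other genes of the pathway gave 0 calls in each comparison by limma, as the members did. The elongation and release factors (10 of 11 fitted) had medians of 0.07, 0.06 and -0.13 at 1 h against untreated, 2 h against untreated and 2 h against 1 h, and 7 were above both other 1 h arrays on 1 h replicate 2. Gspt1, a release factor GTPase, had 6340 there and 2073 to 3516 on the other 8 arrays. Of the mitochondrial synthetases, 13 of 17 were fitted, with medians of 0.07, -0.09 and -0.07, and 10 were above both other 1 h arrays on 1 h replicate 2, with a median there of 0.32 where the cytosolic ones had 1.10. The scaffolds and phenylalanine synthetase (4 of 4 fitted) were above both in 3 cases. Farsb, a subunit of that enzyme, had 2692 there and 828 to 1523 elsewhere, and the scaffold Aimp1 had 792, against 1016 and 877. The regulators of eIF2 and eIF4F (29 of 31 fitted) had medians of 0.05, -0.05 and -0.18. Impact, which restrains the eIF2 kinase GCN2, had 872, 521 and 878 on the 1 h arrays, against 343, 394 and 309 on the untreated arrays, higher without overlap, with a log2 difference of 0.99 ± 0.20 and a limma adjusted p of 1. It was picked out after its values were seen. Its 2 h arrays had 310, 397 and 303, at the untreated level.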

How the data were processed

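Biotin-labelled cRNA of 9 samples was measured on Illumina bead arrays, per the labels. The deposited value table gives 45281 probes an intensity on a linear scale per array. The authors' software and normalization are not given in the sources used here. Of these values 31.8% were below 0 and the upper quartiles were 35.1 to 35.3, as after background subtraction and normalization between arrays. A further, non-normalized table was set aside because its 9 value columns could not be tied to single samples, and no detection p-values were at hand. The design had allowed for either scale, and log2(intensity + 50) was tested.

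A probe was above noise where it exceeded the upper 0.05 tail of the values below 0 mirrored around 0 (6.44 to 6.45), and 20983 probes above noise on at least 3 of 9 arrays were kept. The probe with the highest mean stood for each symbol, giving 14640 features (11104 named genes and 3536 unnamed probes). In the platform annotation 34885 probes had 1 symbol, 18 several and 10378 none. For 37 members more than 1 probe was kept, and these disagreed on the sign in 9 members at 1 h against untreated, 13 at 2 h against untreated and 9 at 2 h against 1 h.

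With limma 3.58.1 (R 4.3.3), group means by label were fitted over the 9 arrays (lmFit, eBayes, 6 residual degrees of freedom, median residual SD 0.202 on the log2 scale), two-sided, with Benjamini-Hochberg adjustment over all features and calls at 0.05. The fit was tested on simulated data with independent errors. These held no arrays that stood apart, so they cannot show how the fit does on arrays like these. No 2 arrays held identical values, and the number of arrays limits the precision. Genes named were every member called in that fit, the 4 members with the largest difference in each comparison, and a list fixed by role. Others are given by counts, or were named after their values were seen. The members and gene lists were chosen with earlier results of these data known. Same-numbered arrays of 1 h and untreated deviated together (r of 0.24 to 0.57 in 3 of 3 pairs, from the data, since the labels state no shared origin), those of 2 h with either label did not (r of -0.79 to -0.34). Arrays of different numbers could do so too, as 1 h replicate 1 and untreated replicate 3 did (r of 0.53). Of 18 combinations of an array and another group, 5 were best correlated with the same number. With the arrays labelled replicate 2 standing apart, these r cannot show whether arrays were paired. Alternatives were other offsets and filters, array weights, a block by replicate number and leaving out arrays.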

Additional observations from a re-analysis of the deposited data

How the results depend on the processing

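Each comparison was refitted under 21 alternatives, of which 10 left out arrays. Offsets of 16 and 100, quantile normalization, no filter, a filter on all 9 arrays, the mean of a gene's probes, another variance model and a fit to the 6 arrays of the groups compared gave 0 calls of members, as did leaving out any single array. A replicate block also gave 0 member calls, in the fit to all arrays and, added after seeing the data, in fits to the 6 arrays of each comparison, where 1 h against untreated is the comparison in which same-numbered arrays deviated together. It changed no call. Array weights called 1 feature at 1 h against untreated, 4914 at 2 h against untreated, 25 at 2 h against 1 h and 3480 in any change, and among the members 29 at 2 h against untreated and 16 in any change. Without the 3 arrays labelled replicate 2, the features called were 1075, 5091 and 3768 in the 3 comparisons and 5139 in any change, the members 3, 29 and 26 and 31 in any change, and the members' median at 2 h against 1 h was 0.19. The cause was not tested. Single arrays left out moved the members' median between -0.12 and 0.26 at 1 h, -0.04 and 0.13 at 2 h and -0.21 and 0.12 at 2 h against 1 h. At 1 h, leaving out 1 h replicate 2 turned the direction of Eif4ebp1 (-0.36), Gars (-0.36), Aars (-0.32) and Eprs (-0.01), and the highest values without 1 array were 0.99, 0.61, 0.62 and 0.69. Array weights and the fit without replicate 2 turned Eif4ebp1 (-0.13 and -0.45), Gars (-0.08 and -0.19) and Aars (-0.22 and -0.34). Members near the noise, Yars, Eif4e and Eif5b among them, are limited by signal over background.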
